A study of Mus musculus with 2 samples.

Results

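The genes examined were 10 antioxidant and glutathione genes that the transcription factor NRF2 is known to drive: Slc7a11, Gclc, Gclm, Gsr, G6pdx, Txnrd1, Srxn1, Prdx1, Hmox1 and Nqo1. They were chosen by name, and each symbol matched 1 locus, so 10 of the 54680 loci in the deposited table were members. Expression was measured by RNA sequencing of total RNA from CT26, a mouse colon cancer cell line. The CT26shSetdb1 cells carried a lentivirus whose short hairpin RNA targets Setdb1, the gene of a methyltransferase that silences chromatin through histone H3 lysine 9. The CT26shCtrl cells carried the empty knockdown vector and are labelled wild type. Both cultures were grown in RPMI medium with serum for 6 days, by which time the knockdown cells are said to have differentiated. The labels do not say whether a cell population was a pool or a clone, and the control vector is not said to express a hairpin. Each group had 1 library, so no difference below has a replicate check and none was tested between conditions. The values describe these 2 libraries.

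NRF2, encoded by Nfe2l2, is held by KEAP1 and degraded in unstressed cells. When oxidants or electrophiles modify KEAP1, NRF2 accumulates, pairs with a small MAF protein and binds antioxidant response elements in the promoters and enhancers of its targets. The products of these targets import cystine, make and recycle glutathione, reduce thioredoxin, supply NADPH and break down heme and quinones. Many tumour cells rely on the same genes to withstand oxidative stress. Slc7a11 is a target of NRF2 and also of ATF4, the transcription factor of the amino acid and endoplasmic reticulum stress response.

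Promoter sequence is shown for 5 members to set the letters of the response elements beside the values that follow. RefSeq promoter windows on build GRCm38.p6, from 250 bases before to 50 bases after each annotated start, matched 7 of the 10 members by symbol, with 9 windows in all. Hmox1, Gclc and Gsr were not matched. Both strands were searched for TGACNNNGC, the core of the antioxidant response element, for TGATGNAA, the core of the ATF4 response element, and for TGANTCA, the AP-1 core. TGAGNNNGC, the other common form of the antioxidant element, was added after the sequences were seen. The sequences come from the C57BL/6J reference and not from CT26 cells. Each line below gives 150 bases, 5′ to 3′ on the gene's strand, that lie before the start and outside annotated exons. Capitals mark all matches to the 4 motifs. The windows shown are those with such a match. The Nqo1 window and the first and last Txnrd1 windows held no match to any motif and are not shown. G6pdx is not shown because its window has no 150 bases before the start that lie outside annotated exons. Slc7a11 lies at chr3:50443615-50443764 on the minus strand, and the other 4 windows are on the plus strand: Gclm at chr3:122245407-122245556, Txnrd1 at chr10:82859029-82859178 (the middle of its 3 windows), Srxn1 at chr2:152105366-152105515 and Prdx1 at chr4:116685394-116685543.
Slc7a11: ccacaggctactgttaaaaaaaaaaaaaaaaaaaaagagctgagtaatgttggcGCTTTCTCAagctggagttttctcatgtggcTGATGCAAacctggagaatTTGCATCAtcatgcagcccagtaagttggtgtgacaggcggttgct
Gclm: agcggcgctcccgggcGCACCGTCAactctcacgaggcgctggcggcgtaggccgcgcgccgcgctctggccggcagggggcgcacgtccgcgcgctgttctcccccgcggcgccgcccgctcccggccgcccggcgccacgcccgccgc
Txnrd1: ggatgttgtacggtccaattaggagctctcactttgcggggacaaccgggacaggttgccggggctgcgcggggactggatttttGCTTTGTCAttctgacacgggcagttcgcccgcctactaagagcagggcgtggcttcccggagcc
Srxn1: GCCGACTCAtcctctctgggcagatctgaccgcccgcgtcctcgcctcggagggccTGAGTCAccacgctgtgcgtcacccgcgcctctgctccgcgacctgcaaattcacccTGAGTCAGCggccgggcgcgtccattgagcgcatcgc
Prdx1: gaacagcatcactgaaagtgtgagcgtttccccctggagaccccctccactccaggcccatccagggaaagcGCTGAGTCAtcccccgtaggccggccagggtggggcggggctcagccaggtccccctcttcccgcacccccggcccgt

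In the Slc7a11 window the ATF4 core occurred 2 times with the same letters, TGATGCAA, once on each strand, starting 66 and 47 bases before the annotated start. No other member window held it, and 3.97% of all 32851 RefSeq windows did. The antioxidant core TGACNNNGC was in the windows of Gclm (TGACGGTGC, from 134 bases before the start), Txnrd1 (TGACAAAGC, from 92 bases), G6pdx (TGACTGAGC, from 57 bases) and Prdx1 (TGACTCAGC, from 133 bases). The G6pdx match lies before the start of its RefSeq window but inside the gene as deposited (chromosome X, 74409483 to 74429194). In Srxn1 a match lay after the start. All of these matches were on the strand opposite the gene. The core was thus found in 5 of the 7 members and in 5 of their 9 windows, while 12.4% of all windows held a match. The second form TGAGNNNGC was found in the windows of Srxn1, Slc7a11 and Prdx1 and in 17.6% of all windows. The AP-1 core was found 2 times in Srxn1 and 2 times in Prdx1, and in 7.81% of all windows. In each of these genes 1 of the AP-1 matches overlaps an antioxidant match, in Srxn1 at the word TGAGTCAGC. A match describes the letters only and is not evidence of binding.

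Levels are given in FPKM, fragments per kilobase scaled to a common depth, and in reads recovered from those values. The knockdown library held 19045830 reads and the control library 18421604. Read ratios are knockdown over control, each relative to its library's total, with a 95% Clopper-Pearson interval that covers counting error only. Log2 ratios are of (FPKM + 1), a scale that understates the change of low genes. Setdb1 itself had 1340 reads in the control and 317 in the knockdown, that is 10.4 and 2.47 FPKM, a read ratio of 0.229 (0.202 to 0.259). The Setdb1 gene overlaps Cers2 and Gm42578, which together had 12234 and 8639 reads, so the division of reads there is uncertain. Of 10 colon epithelial markers, Epcam, Cdh1 and Cdx1 had 0 reads in both libraries. The summed level of the 10 was 43.8 FPKM in the control and 128 FPKM in the knockdown. Nearly all of it came from the keratin genes Krt18 (37.7 and 90.0 FPKM) and Krt20 (5.07 and 35.6 FPKM). Only 3 of the 10 reached 1 FPKM in a library, and Lgals4 was not higher in the knockdown (28 and 23 reads). The 8 mesenchymal markers summed to 1188 and 1414 FPKM, most of it from Vim (752 and 835 FPKM) and Fn1 (381 and 534 FPKM). Of the 7 tested, 3 were above and 4 below 0, with a median log2 ratio of -0.15, so the sum does not describe the list. Of 5 leukocyte markers, Cd3e, Itgam and Adgre1 had 0 reads in both libraries and Ptprc 0 and 4, while Cd68 had 245 reads in the control and 2360 in the knockdown. In bulk RNA, fewer cells with a transcript and less of it per cell cannot be told apart.

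The 10 genes did not move as a group. All 10 reached 1 FPKM in at least 1 library, the level at which a gene was counted as tested, as did 10671 loci. Slc7a11 reached it only in the control library, so it could be counted only as lower. Genes that supply the glutathione precursors and join them, Slc7a11, Gclc and Gclm, and the thioredoxin reductase gene Txnrd1 were lower in the knockdown library. Gsr, which recycles glutathione, and Srxn1, which repairs peroxiredoxins, were higher, and Hmox1, Nqo1, Prdx1 and G6pdx differed least. On the log2 scale 2 members, Txnrd1 and Gclc, were at least 2-fold lower, where 4.85% of all genes tested were, and 0 were at least 2-fold higher, where 6.81% were. The median log2 ratio of the 10 was 0.04, with 5 above and 5 below 0, and that of all genes tested was -0.00039 with quartiles of -0.36 and 0.38. At a 1.5-fold threshold 2 members (Gsr and Srxn1) were higher, where 16.9% of all genes tested were. At that threshold 3 members, Slc7a11 included, were lower, where 14.3% were. The counting interval lay above 1 for 4 members (35.2% of all genes tested) and below 1 for 5 (40.6%). It excluded 1 for 75.8% of all genes tested, so an interval away from 1 was the common case.

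**Figure D1:**
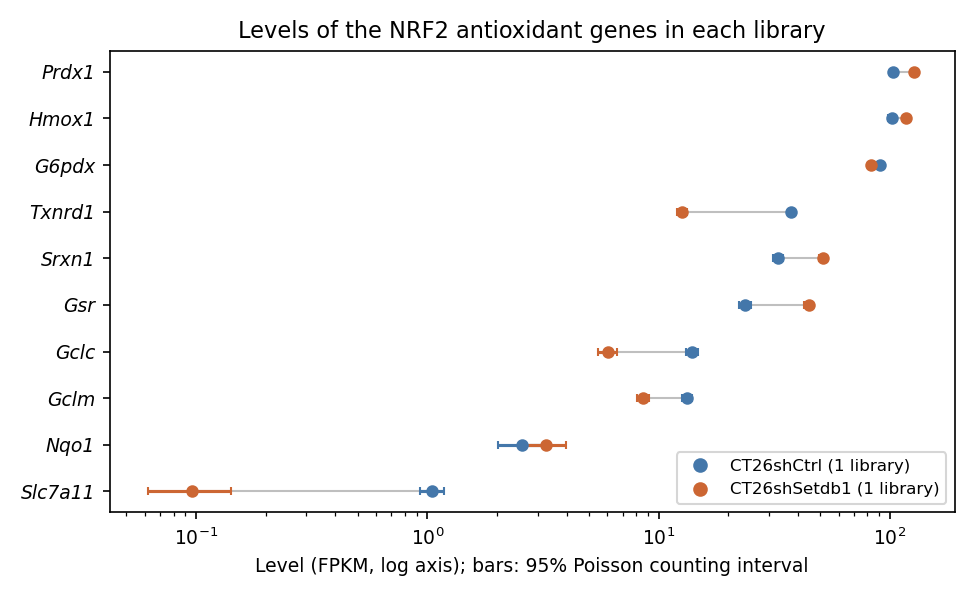
Level of each of the 10 genes in FPKM on a log axis, with blue points for the control library, orange points for the knockdown library and bars for the 95% Poisson counting interval. Slc7a11, Txnrd1, Gclc and Gclm lie to the left in the knockdown library, from 1.05 to 0.0959 FPKM for Slc7a11, while Gsr and Srxn1 lie to the right.

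Slc7a11 (ENSMUSG00000027737, chromosome 3, 49892526 to 50443614) encodes xCT, the light chain of a cystine and glutamate exchanger. The exchanger brings in the cystine from which cysteine for glutathione is made. Slc7a11 was the least abundant of the 10 genes in each library. It had 274 reads (1.05 FPKM) in the control library and 25 reads (0.0959 FPKM) in the knockdown library. The level was low in both libraries and lower in the knockdown. The read ratio was 0.0883 (0.0561 to 0.133), or 11.3-fold lower with an interval of 7.51 to 17.8. This was the lowest read ratio of the 10 genes. The log2 ratio was -0.90, since 1 FPKM is added to a level near 1, and it was -2.55 with 0.1 FPKM added. On that scale Slc7a11 is 1 of 3 members at least 2-fold lower, as were 8.15% of all genes tested. Slc7a11 passed the 1 FPKM level only through the control library, where it is high, so its place in this count is a description only. Its FPKM is computed over a gene model of 13922 bases, the longest among the members.

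Gclc (ENSMUSG00000032350, chromosome 9, 77754535 to 77794485) encodes the catalytic subunit of glutamate-cysteine ligase, the rate-limiting enzyme of glutathione synthesis. It had 986 reads (14.0 FPKM) in the control library and 425 reads (6.02 FPKM) in the knockdown library. The knockdown level was the lower, with a read ratio of 0.417 (0.371 to 0.468) and a log2 ratio of -1.09. Of all genes tested, 3.67% had a log2 ratio as low or lower. Gclm (ENSMUSG00000028124, chromosome 3, 122245557 to 122270732) encodes the modifier subunit, which raises the enzyme's affinity for glutamate. Its reads were 1568 (13.3 FPKM) in the control and 1010 (8.57 FPKM) in the knockdown library, a read ratio of 0.623 (0.575 to 0.675) and a log2 ratio of -0.58. Both subunit genes were thus lower, Gclc by more than Gclm, and their read ratio intervals did not overlap. Per length, Gclc stood at 1.05 times the level of Gclm in the control library and at 0.703 times in the knockdown library. Gss, the synthase for the second step of glutathione synthesis, had 919 and 822 reads, a read ratio of 0.865 (0.786 to 0.952), and was chosen after its value was seen.

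Gsr (ENSMUSG00000031584, chromosome 8, 33652523 to 33698163) encodes glutathione reductase, which returns oxidised glutathione to its reduced form with NADPH. It had 1220 reads (23.7 FPKM) in the control library and 2298 reads (44.5 FPKM) in the knockdown library. This was the highest ratio of the 10, with a read ratio of 1.82 (1.70 to 1.95) and a log2 ratio of 0.89, which 8.79% of all genes tested reached or passed. G6pdx (ENSMUSG00000031400, chromosome X, 74409483 to 74429194) encodes the enzyme that opens the pentose phosphate pathway and so supplies that NADPH. Its levels were close, 5206 reads (90.2 FPKM) and 4761 reads (82.5 FPKM) in control and knockdown, with a read ratio of 0.885 (0.850 to 0.920) and a log2 ratio of -0.13. The G6pdx gene overlaps Ikbkg, which had 1676 and 1230 reads, and which strand the counting used is not given in the sources used here, so the division of reads between the 2 genes is uncertain.

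Txnrd1 (ENSMUSG00000020250, chromosome 10, 82833951 to 82897712) encodes cytosolic thioredoxin reductase, a selenoprotein that keeps thioredoxin reduced. It had 4985 reads (37.6 FPKM) in the control library and 1673 reads (12.6 FPKM) in the knockdown library. The knockdown level was the lower, with a read ratio of 0.325 (0.307 to 0.343) and the lowest log2 ratio of the 10, -1.50. Only 1.37% of all genes tested were as low or lower. Srxn1 (ENSMUSG00000032802, chromosome 2, 152105516 to 152111376) encodes sulfiredoxin, which reactivates peroxiredoxins whose cysteine has been over-oxidised. Its reads were 1737 (32.9 FPKM) in the control and 2708 (51.3 FPKM) in the knockdown library. It was thus higher in the knockdown, with a read ratio of 1.51 (1.42 to 1.60) and a log2 ratio of 0.63. Prdx1 (ENSMUSG00000028691, chromosome 4, 116685544 to 116700822) encodes an abundant cytosolic peroxidase that sulfiredoxin acts on. It had 5883 reads (103 FPKM) and 7251 reads (127 FPKM), slightly more in the knockdown, with a read ratio of 1.19 (1.15 to 1.23) and a log2 ratio of 0.30. The deposited protein match puts 4 loci under Prdx1, and the other 3, which are processed pseudogenes, had 49 reads in the control and 71 in the knockdown library.

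Hmox1 (ENSMUSG00000005413, chromosome 8, 75093621 to 75100589) encodes heme oxygenase 1, which breaks heme down to biliverdin, iron and carbon monoxide. It had 3348 reads (102 FPKM) in the control library and 3870 reads (118 FPKM) in the knockdown library, a read ratio of 1.12 (1.07 to 1.17) and a log2 ratio of 0.21. The difference was small, and 70.4% of all genes tested lay as far or farther from 0. Nqo1 (ENSMUSG00000003849, chromosome 8, 107388225 to 107403206) encodes a quinone reductase that is widely used as a readout of NRF2. It had only 75 reads (2.58 FPKM) in the control and 95 reads (3.27 FPKM) in the knockdown library. The read ratio of 1.23 (0.896 to 1.68) is the 1 member interval that includes 1, so a difference in Nqo1 was not detectable at this depth.

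**Figure D2:**
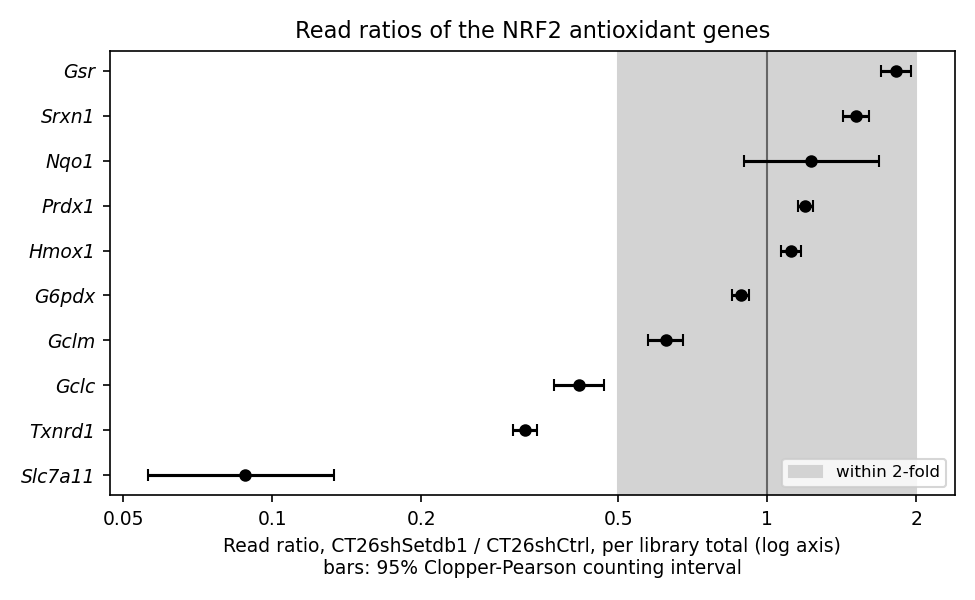
Read ratio of each gene, knockdown over control relative to the library totals, on a log axis with 95% Clopper-Pearson counting intervals and a grey band for ratios within 2-fold. Slc7a11 (0.0883), Txnrd1 (0.325) and Gclc (0.417) lie left of the band, and the other 7 genes lie inside it.

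Ordered by level per length in the control library, the genes ran Prdx1, Hmox1, G6pdx, Txnrd1, Srxn1, Gsr, Gclc, Gclm, Nqo1 and Slc7a11, from 103 to 1.05 FPKM. The Poisson intervals of Prdx1 and Hmox1 overlapped, as did those of Gclc and Gclm, so these neighbours did not differ beyond counting error. In the knockdown library no neighbours overlapped. Txnrd1 lay above Srxn1 and Gsr in the control library and below both in the knockdown library, and Gclc and Gclm also changed places. Gsr stood at 0.630 times the level of Txnrd1 in the control library and at 3.53 times in the knockdown library.

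**Figure D3:**
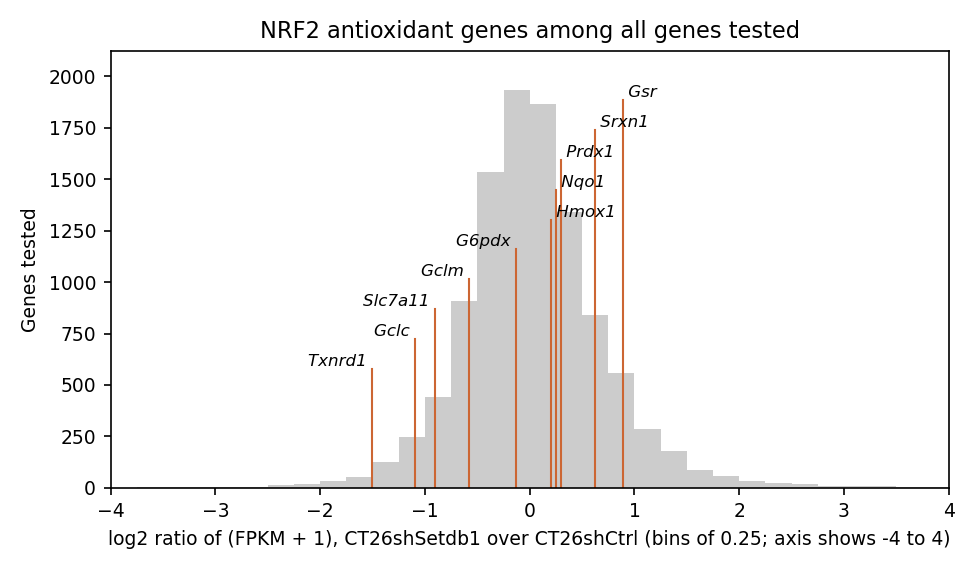
Number of genes tested per 0.25 of log2 ratio of (FPKM + 1), knockdown over control, with a line for each of the 10 genes (line heights only separate the names). Txnrd1 (-1.50) lies in the lower tail and Gsr (0.89) on the upper shoulder, with G6pdx, Hmox1, Nqo1 and Prdx1 near the centre.

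The genes that control NRF2 were themselves mixed. Of 12, all at 1 FPKM or more, 0 were higher by 2-fold or more and 1 was lower by as much (8.33%). Of all genes tested, 6.81% were higher and 4.85% lower by as much. The median log2 ratio of the 12 was -0.21. Nfe2l2 had 2130 reads (30.0 FPKM) in the control and 1837 reads (25.8 FPKM) in the knockdown library, a read ratio of 0.834 (0.783 to 0.888). Keap1, the repressor, was higher in the knockdown, 2327 reads against 1326, with a read ratio of 1.70 (1.59 to 1.82). Cul3, the ligase scaffold that works with KEAP1, had 552 reads in the control and 389 in the knockdown (log2 ratio -0.42), and Rbx1, its ring finger subunit, 2170 and 2998 (0.45). Among the small MAF partners, Maff had 2978 reads in the control and 5735 in the knockdown (0.93), while Mafg was at -0.27 and Mafk at -0.06. Bach1, which competes with NRF2 for the same elements and represses Hmox1, was at -0.27 on 202 and 148 reads. The related factor Nfe2l1 was at -0.21. Sqstm1, the autophagy receptor p62 that binds KEAP1 and is itself an NRF2 target, was lower, 793 FPKM in the control and 467 FPKM in the knockdown (-0.76). Of the KEAP1-independent route, Gsk3b, the kinase that marks NRF2 for degradation, was at -1.02 (1189 and 494 reads). Btrc, the ligase receptor of that route, was at 0.81 (648 and 1374 reads). Its deposited protein match is carried by 14 loci, and those other than Btrc held 33801 and 29937 reads. Whether reads were shared among these loci was not measured, so the Btrc value is uncertain. These are RNA levels, and NRF2 is set largely by protein stability, which was not measured here.

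The other genes of the pathway were described through lists that do not hold the members. Of 18 tested genes that make, use or break down glutathione, 1 was 2-fold or more higher and 1 was 2-fold or more lower, with a median log2 ratio of 0.04. Each count is 5.56% of the list, near the 6.81% higher and 4.85% lower of all genes tested. Glrx, a glutaredoxin, was highest, with 286 reads in the control and 1027 in the knockdown (1.54). Chac1, which degrades glutathione and is also an ATF4 target, was lowest, with 2599 and 626 reads (-2.00). Among 14 further thioredoxin and peroxiredoxin genes, 2 were at least 2-fold higher and 1 lower (14.3% and 7.14%, beside the same shares of all genes), with a median of 0.05. Txnip, which binds and inhibits thioredoxin, was at 187 FPKM in the control and 602 FPKM in the knockdown (1.68). Prdx5, a peroxiredoxin of several compartments, was at 102 and 255 FPKM (1.32), and it overlaps Trmt112, which had 2506 and 1802 reads. Txnrd3, a testis-enriched thioredoxin reductase, had 470 reads in the control and 128 in the knockdown (-1.53), close to the log2 ratio of Txnrd1.

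The remaining lists held few large differences, where 6.81% of all genes tested were 2-fold or more higher and 4.85% lower by as much. Of 10 tested NADPH supply genes, 0 passed 2-fold in either direction; the median was -0.09, from -0.44 for Rpia to 0.41 for Idh2. Of 13 detoxification and export genes, also 0 passed 2-fold, with a median of 0.19, from -0.36 for Ephx1 to 0.99 for Ptgr1, which had 110 reads in the control and 261 in the knockdown. Of 11 heme and iron genes, 1 was at least 2-fold higher: Blvrb, biliverdin reductase B, with 1443 reads in the control and 3309 in the knockdown (1.17). The median of that list was 0.20 and its lowest member was Ireb2 at -0.46. The 4 tested superoxide dismutase and catalase genes ran from -0.30 for Ccs, the copper chaperone of SOD1, to 0.07 for Sod1. Of 8 NADPH oxidase genes only Cyba was tested, at 189 FPKM in both libraries.

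Genes of the ATF4 response, listed because Slc7a11 is driven by both factors, had the lowest median of the 9 lists. Of 25 tested, 18 were at least 2-fold lower (72.0%, against 4.85% of all genes tested) and 1 was at least 2-fold higher, with a median log2 ratio of -1.38. Without Atf4 itself, 17 of 24 were at least 2-fold lower. The list was chosen with earlier results of these data known, so these shares are a description only. Atf4 had 21170 reads (479 FPKM) in the control library and 7858 reads (178 FPKM) in the knockdown library, a read ratio of 0.359 (0.350 to 0.368). Slc3a2, the heavy chain with which the Slc7a11 protein forms the cystine and glutamate transporter, had 13465 reads (204 FPKM) and 5318 reads (80.5 FPKM). Both chains of the transporter were thus lower in the knockdown, Slc3a2 with a read ratio of 0.382 (0.370 to 0.394) and Slc7a11 with 0.0883. Trib3, a pseudokinase of the stress response, was lowest of the list, with 14423 reads in the control and 1656 in the knockdown (log2 ratio -3.09). The stress regulators Ddit3 (-1.06), Atf5 (-1.98) and Ppp1r15a (-1.38), with Chac1 (-2.00), were also at least 2-fold lower. So were the serine and one-carbon enzymes Phgdh (-1.61), Psat1 (-1.15), Psph (-1.29), Shmt2 (-1.93) and Mthfd2 (-1.76). Of these, Phgdh, Psat1, Psph and Shmt2 lead to glycine, a building block of glutathione. Ddit3 overlaps Mars and Gm4189 (6716 and 4086 reads in control and knockdown), Atf5 overlaps Nup62 and Il4i1 (2861 and 4913), and Psph overlaps Cct6a (4137 and 3298). The division of reads at these genes is uncertain. The deposited protein match of Phgdh is carried by 20 loci, and those other than Phgdh held 4961 and 1838 reads. The amino acid enzymes Asns (-1.71), Gpt2 (-2.38), Aldh18a1 (-1.56) and Pycr1 (-1.91), the transporter Slc7a5 (-2.21) and the secreted Stc2 (-1.20) complete the 18 with Atf4, Slc3a2 and Trib3. Stc2 reached 1 FPKM only in the control library (2.40 FPKM, and 0.485 FPKM in the knockdown). Ddit4, an inhibitor of mTORC1, was the exception above 2-fold, with 1489 reads in the control and 3852 in the knockdown (1.35). That the ATF4 list is lower in the knockdown is a description of these libraries, and its part in the Slc7a11 level was not tested.

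**Figure D4:**
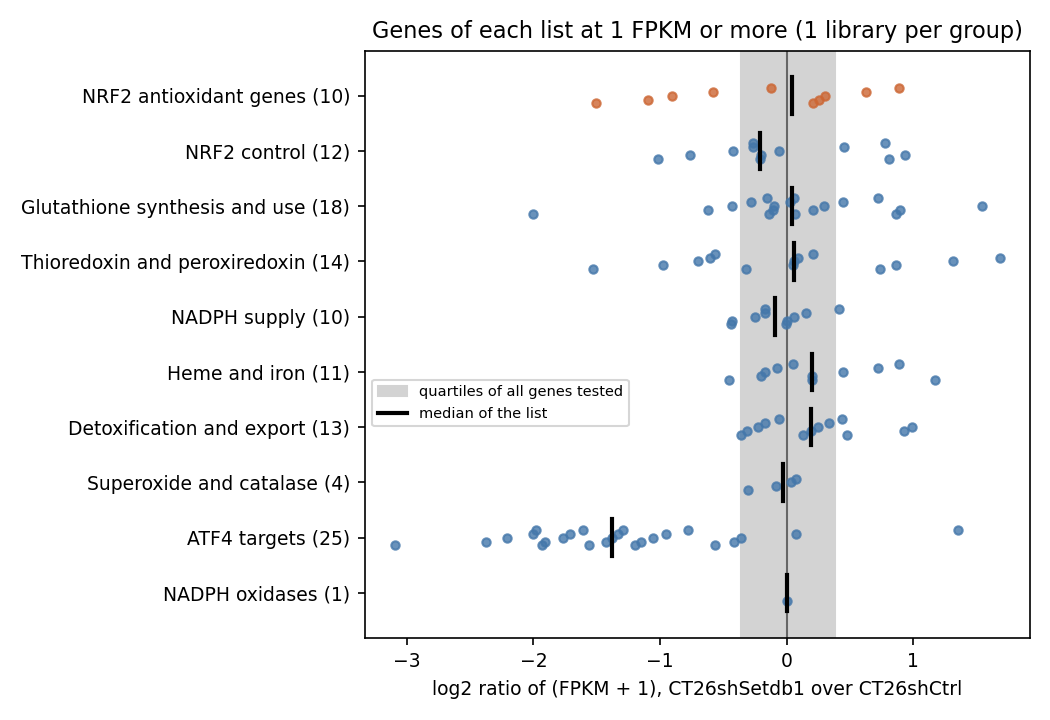
Log2 ratio of (FPKM + 1), knockdown over control, of each gene at 1 FPKM or more, by list, with a black bar for the list median and a grey band for the quartiles of all genes tested (-0.36 to 0.38). Most of the ATF4 list lies left of the band, with a median of -1.38, while the medians of the other lists, the 10 NRF2 antioxidant genes included, lie inside it.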

How the data were processed

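Expression was measured in 1 CT26shSetdb1 and 1 CT26shCtrl library. The authors deposited FPKM per gene, per the file headers, with the other column, gene_length, giving the length of each gene model in bases. CASAVA, HISAT2 and featureCounts 1.5.0-p3 and the build GRCm38 are named in the submitters' processing notes, without settings. Groups came from the labels, and columns were matched to samples by library name. FPKM times gene length fell on whole multiples of 1 step for 100% of values above 0, within 0.01 reads, in both libraries. The step shows that both were divided by the same depth of 18731117 reads, so the FPKM ratios still carry the 1.03 ratio of the totals (19045830 reads in the knockdown and 18421604 in the control), and read ratios do not. Genes that reached 1 FPKM in either library were held against a 2-fold threshold on log2(FPKM + 1) and are called tested. No p-value was computed, since each group had 1 library. For a symbol with more than 1 locus, the locus with most reads was used. Some other named genes also overlap loci with reads, and the division of reads there is likewise uncertain. The genes named were the 10 members, Setdb1, all NRF2 control genes and, in each other list, the highest, the lowest and every gene past 2-fold. Members, lists and alternatives were chosen with earlier results of these data known. Alternatives were a pseudocount of 0.1, 3 scalings, no filter or a filter at 5 FPKM, a 1.5-fold threshold, protein-coding genes only, and reads summed over loci with the same protein match. One leukocyte marker of the planned list is not reported here. The calculations were tested on simulated data. The software was scipy 1.17.1, numpy 2.4.6 and pandas 2.3.3 under Python 3.11.15, with matplotlib 3.10.9 for figures.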

Additional observations from a re-analysis of the deposited data

How the results depend on the processing

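The 10 genes kept the sign of their log2 ratio under all 5 alternatives run for them, and 49 of 50 alternative values stayed within counting error; the other was Slc7a11 with a pseudocount of 0.1, at -2.55. With that pseudocount 3 members were at least 2-fold lower (8.15% of all genes tested), Setdb1 was at -2.04, and 1134 genes were higher and 870 lower, since a smaller pseudocount weighs low genes more. At 1.5-fold, 2 members were higher (16.9% of all genes) and 3 lower (14.3%), with 1804 and 1523 genes in all. The median of the 10 was between -0.0077 under scaling by own read totals and 0.0423 under the median ratio. With a filter at 5 FPKM the median was -0.134 for thioredoxin and peroxiredoxin genes and -0.0054 for NADPH supply genes. Without a filter it was -0.0096 for NADPH supply and 0.0485 for heme and iron genes, because genes with few reads enter. Of 126 alternative counts in the lists, 4 changed by more than 1.5 times, each by 1 gene. Scalings moved the median over genes that reached 1 FPKM in each library to between -0.0429 and 0. No paired analysis was possible because there was a single library per group, so none could be left out either. Depth limits Nqo1 and Slc7a11 most, and Slc7a11 enters the counts of lower members only through its control level.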

Other observations

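Genes that supply amino acids or one-carbon units were listed after the values above were seen, so their counts are a description only. Of 11 amino acid transporters and enzymes, 6 reached 1 FPKM in a library, of which 5 were lower in the knockdown by 2-fold or more and 0 were higher by as much, beside 4.85% and 6.81% of all genes tested. The glycine transporter Slc6a9 had 4019 reads in the control and 323 in the knockdown (log2 ratio -3.29). The neutral amino acid transporters Slc1a5 (16033 and 4177 reads, -1.92), Slc38a2 (12401 and 2616 reads, -2.18) and Slc1a4 (3511 and 741 reads, -2.14) and the cationic transporter Slc7a1 (-1.79) were the other 4. Glul, glutamine synthetase, was the exception at 0.44. Of the route that makes cysteine from methionine, Cbs had 0 reads in both libraries and Cth had 27 and 2. Of 9 serine and one-carbon genes, 5 of them also in the ATF4 list, 7 were at least 2-fold lower, the mitochondrial Aldh1l2 lowest at -2.32. Cytosolic Mthfd1 was at -1.90 and cytosolic Shmt1 at -0.30, while mitochondrial Mthfd1l was at 0.23, so the compartments did not divide by direction.

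Selenoprotein genes, also listed after values were seen, were split. Of 16 tested, 8 were above and 8 below 0, with a median log2 ratio of -0.04. Txnrd1 (-1.50) and Txnrd3 (-1.53) were the 2 at least 2-fold lower, and 0 were at least 2-fold higher, beside 4.85% and 6.81% of all genes tested. The other 6 below 0 ran from -0.51 for Selenot to -0.10 for Selenoo and include Txnrd2 at -0.32. The 8 above 0 ran from 0.02 for Gpx4 to 0.97 for Selenow (2213 and 4339 reads). Relative to the library totals Gpx4 had a read ratio of 0.984 (0.963 to 1.01), so its side of 0 depends on the scaling. In the mitochondrial thioredoxin chain, Prdx3 had 2086 reads in the control and 1047 in the knockdown (-0.98) and Txn2 7155 and 4381 (-0.70). Cytosolic Txn1 had 3206 and 3695 (0.20) and Prdx2 was at 0.05. These genes were picked after values were seen, and the compartments did not divide by direction. Cytosolic Txnrd1 was at -1.50 and Prdx6 at -0.61. Mitochondrial Txnrd2 was at -0.32 and Prdx5, of several compartments, at 1.32.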
